A study of Mus musculus with 11 samples.

Results

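The genes described here encode the nuclear parts of 2 mitochondrial machines, the mitochondrial ribosome and respiratory complex I. They were taken from the authors' deposited table of H3K27ac regions as every row whose gene symbol begins with Mrpl or Mrps and a digit, or with Nduf, with Mrps28 left out. This gave 289 regions carrying 111 gene symbols, of 56342 regions and 12081 symbols in all. H3K27ac, acetylation of histone H3 at lysine 27, marks active promoters and enhancers, and it was mapped by chromatin immunoprecipitation and sequencing (ChIP-seq) in Beko, a line of mouse pre-T cells grown in culture. Cells received apicidin (0.01 mg/ml, dose as labelled), a histone deacetylase inhibitor that the labels call an inhibitor of HDAC3, or DAPT (10 mg/ml, as labelled), an inhibitor of gamma-secretase (GSI), the protease whose cut releases the active part of Notch receptors, or DMSO as the control, each for 24 h. Each of these 3 groups had 2 H3K27ac libraries and 1 input, and RBPJ, the transcription factor that cleaved Notch joins on DNA, was mapped in 2 libraries of DMSO cells. All cells come from 1 line. Separate cultures behind the 2 libraries of a group are not stated in the labels, so a p-value here speaks only to the spread among the libraries and may reflect technical error alone.

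Mitochondria keep a small genome that encodes a few hydrophobic subunits of the respiratory chain, and the mitochondrial ribosome is the machine that translates them. Its proteins, the Mrpl proteins of the large subunit and the Mrps proteins of the small subunit, are all encoded in the nucleus and imported. Complex I oxidises NADH, passes the electrons to ubiquinone and pumps protons across the inner membrane. Its nuclear-encoded subunits carry Nduf names and join the mitochondrially encoded ones with the help of assembly factors, many named Ndufaf. Both machines thus need a supply of parts from many scattered nuclear genes, most of them expressed in all tissues.

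By symbol, 44 genes belonged to the large mitoribosomal subunit, 26 to the small subunit, 7 to the conserved core of complex I, 27 to its accessory subunits and 6 to its assembly factors. Ndufa4, named as a complex I subunit, has since been placed in complex IV and was kept apart. A few other symbols also outlived their assignment, since structures place Mrps30 and Mrps18a in the large subunit and Mrps36 is now counted with the oxoglutarate dehydrogenase complex. The identity of the cells was checked on markers. All 14 pre-T markers searched for (among them Ptcra, Rag1, Cd3e and Notch1) carried regions, 12 of them over a start site, and their strongest regions had base means of 222 to 12722. Regions were also credited to 3 of 5 B-lineage, 1 of 5 myeloid, 3 of 4 erythroid and 3 of 4 stromal and epithelial markers, none of them over a start site. In that order their strongest regions had base means of 165 to 260, 1245, 163 to 871 and 42.2 to 294. Some of these exceeded the lowest pre-T value.

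Values of single libraries are not in the table that was used, so the level of a region is given as its base mean, the authors' mean of normalised read counts over the libraries, and each change as the authors' log2 fold change against DMSO with its standard error (SE). Each gene is represented by its region of highest base mean, called its strongest region below. Regions with an authors' adjusted p under 0.05 are called higher or lower. Of the 289 member regions, 80 (27.7%) covered a transcription start site (TSS), against 14% of all regions. These 80 belonged to 80 genes, and the other 31 genes had no region over their own start. The strongest region covered the TSS in 71 genes, lay within 200 bp of it in 12 and lay farther away in 28, of which 14 were over 5000 bp away.

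Read counts at the strongest and at the TSS-covering regions of these genes were lower than over all genes. In the authors' deposited table the strongest member regions had a median base mean of 268 (quartiles 131 and 447), against 389 over all genes, and their TSS-covering regions one of 288, against 475 for all TSS-covering regions. Base mean is a count per region, not corrected for width, and these member regions were also narrower. Their median width was 1305 bp against 1794 bp for strongest regions, and 1368 bp against 1929 bp for TSS-covering ones. Over all regions the order was the reverse. The 289 member regions had a median base mean of 84.4 against 61.3, and a median width of 681 bp against 620 bp. Among the strongest member regions the lowest base mean was that of Mrpl30, at 11.8, and the highest that of Mrps18b, at 2305. The top of the range also held Ndufb9, at 2053, Mrpl1, at 1799, and Ndufaf3, at 1635. Most genes had few regions, 47 of them a single one, whereas 6 genes with at least 10 regions each held 81 of the 289.

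Some of these genes start near a neighbour on the opposite strand. In RefSeq (GRCm38.p6), 32 of the 99 members that could be matched to a RefSeq promoter had another coding gene starting on the opposite strand within 1000 bp. The share of all coding genes with such a partner was not computed, so this is not shown to be particular to the members. The authors' table credits each region to 1 symbol, so a region that covers both starts counts for 1 gene only. Of the 31 genes without a TSS-covering region 28 could be matched, 13 of these had such a partner, and for 10 the partner carried a TSS-covering region. The starts of Mrps11 and Mrpl46, a small-subunit and a large-subunit gene, lie 42 bp apart, and the TSS-covering region there was credited to Mrpl46. Mrps7 (224 bp from Gga3), Mrpl51 (614 bp from Ncapd2) and Ndufa7 (10 bp from Rps28) likewise had no TSS-covering region of their own while the neighbour had one. Whether the neighbour's region reaches the member's start was not tested. In the other direction, 19 TSS-covered members had a partner and 13 of those partners had no TSS-covering region of their own. Among these are Ppp1r10 beside Mrps18b, Rbm10 beside Ndufb11, Zfp661 beside Mrps5 and Hira beside Mrpl40. Cyb5rl beside Mrpl37 and Kbtbd4 beside Ndufs3 are others. At such pairs, which gene a change belongs to was not tested.

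Promoter sequences are printed for the 4 members that carry the main contrasts described below. Mrpl46 had the lowest and Mrpl1 the highest apicidin value among genes whose strongest region covers the TSS, and Mrps18b and Ndufb2 were lower with apicidin and higher with GSI. The sequences are RefSeq windows of 300 bases on GRCm38.p6, from 250 bases before the start to 50 after it, read 5′ to 3′ on the gene's strand. They lie on a later build than the mm9 regions, and no coordinates were converted. Mrpl46 is at chr7:78783040-78783339 (minus strand), Mrpl1 at chr5:96209865-96210164 (plus strand), Mrps18b at chr17:35916391-35916690 (minus strand) and Ndufb2 at chr6:39592315-39592614 (plus strand). Capitals mark matches on either strand to 4 short motifs: GCATGCG for NRF1, CCGGAAG for ETS factors and GABP, AAGATGG for YY1 and the core TGGGAA for RBPJ, the last added after the data had been seen. NRF1, GABP and YY1 are transcription factors known to act at many nuclear genes for mitochondrial proteins.
Mrpl46: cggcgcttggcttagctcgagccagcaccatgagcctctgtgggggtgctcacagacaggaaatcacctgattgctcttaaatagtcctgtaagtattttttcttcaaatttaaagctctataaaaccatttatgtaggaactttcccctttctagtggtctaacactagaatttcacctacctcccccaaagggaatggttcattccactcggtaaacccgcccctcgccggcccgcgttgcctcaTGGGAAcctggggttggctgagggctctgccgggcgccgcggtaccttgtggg
Mrpl1: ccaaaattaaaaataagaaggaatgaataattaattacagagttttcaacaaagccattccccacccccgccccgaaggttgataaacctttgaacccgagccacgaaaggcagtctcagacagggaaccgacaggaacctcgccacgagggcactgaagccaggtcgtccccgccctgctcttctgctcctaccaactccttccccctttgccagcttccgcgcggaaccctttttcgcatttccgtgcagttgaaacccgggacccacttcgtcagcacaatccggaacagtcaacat
Mrps18b: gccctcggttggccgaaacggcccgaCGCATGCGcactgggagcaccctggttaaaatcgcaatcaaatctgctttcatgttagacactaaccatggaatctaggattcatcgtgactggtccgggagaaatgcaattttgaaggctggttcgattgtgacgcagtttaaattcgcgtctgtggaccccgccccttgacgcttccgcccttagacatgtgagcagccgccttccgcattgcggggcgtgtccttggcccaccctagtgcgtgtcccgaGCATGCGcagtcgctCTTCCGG
Ndufb2: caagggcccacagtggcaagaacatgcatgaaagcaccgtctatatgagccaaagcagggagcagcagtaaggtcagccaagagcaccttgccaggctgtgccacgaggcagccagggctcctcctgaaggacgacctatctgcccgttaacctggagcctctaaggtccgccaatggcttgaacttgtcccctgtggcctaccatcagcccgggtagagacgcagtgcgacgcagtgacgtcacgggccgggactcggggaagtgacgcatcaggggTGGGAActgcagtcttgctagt
The Mrps18b window held the NRF1 letters on both strands in 1 overlapping palindrome and once more after the start, and the ETS letters at its end. Mrpl46 and Ndufb2 each held 1 RBPJ core, and Mrpl1 held none of the 4 motifs. A match describes the letters only and shows no binding.

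Over the 99 members with a RefSeq promoter (107 windows, genes with several counted once), 28.3% held the ETS and GABP letters, 20.2% those of YY1 and 12.1% those of NRF1. The shares over all 17492 protein-coding genes were 12.9%, 7.18% and 4.96%. Over the 5639 coding genes with a TSS-covering H3K27ac region they were 23.2%, 8.99% and 8.28%. In all, 51 of the 99 held at least 1 of the 3 motifs. The RBPJ core was found in 22.2% of members, beside 27.4% of all coding genes and 26% of those with a TSS-covering region. By apicidin call, the ETS letters stood in 7 of 23 lower genes, 2 of 6 higher genes and 19 of 70 genes not called.

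Apicidin was compared with DMSO to ask how acetylation at these genes responds to deacetylase inhibition. In the values as deposited, the strongest region was lower in 28 of 111 genes (25.2%) and higher in 8 (7.21%), and 75 were not called. With the trend over base mean subtracted the counts turned to 15 lower and 17 higher, as described below. Over all genes of the authors' deposited table, the strongest region was lower in 33.5% and higher in 12%, so the members' shares lay below those of all genes in both directions, a difference that was not tested. The median log2 fold change was -0.167 over the 111 members and -0.178 over all genes. Restricted to regions over a TSS, 24 of 80 members (30%) were lower and 6 (7.5%) higher, beside 39.4% and 8.01% of all such regions. The interquartile range of base mean of the members' own TSS-covering regions was 175 to 447. Of all TSS-covering regions within it, 32.8% were lower and 5.37% higher. The 80 members span base means of 67.3 to 2305, so these last shares are not matched to theirs in strength. Shares within the same ranges of base mean follow below. Over all 289 member regions 37 were lower and 23 higher, beside 14.1% and 9.69% of all regions. The 209 off a TSS held 13 of the lower and 17 of the higher ones, beside 10% and 9.97% of all such regions.

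**Figure D1:**
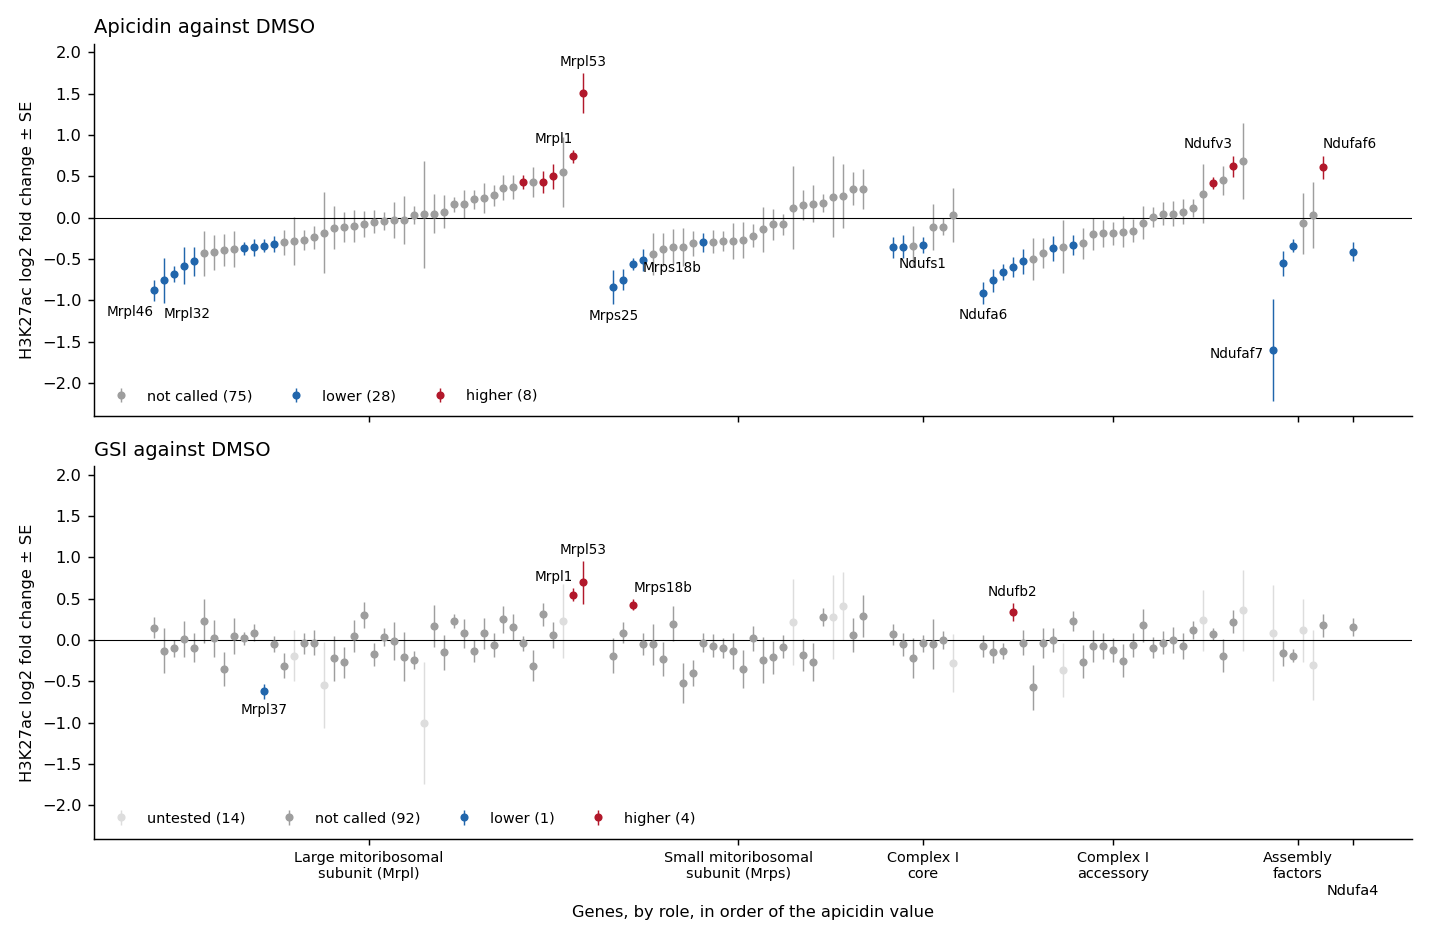
Log2 fold change of H3K27ac (y axis, ± SE) at the strongest region of each of the 111 genes, for apicidin (top) and GSI (bottom) against DMSO, from the authors' deposited table. Genes run along the x axis by role and, within a role, in order of the apicidin value. Points are coloured by the authors' adjusted p under 0.05: 28 lower and 8 higher with apicidin, 1 lower and 4 higher with GSI, and the palest points had no adjusted p.

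Of the 44 genes of the large subunit, 5 were higher (11.4%) and 9 lower (20.5%) with apicidin, beside 12% and 33.5% of all genes, with a median of -0.065. Mrpl53 had the highest value of any member, a log2 fold change of 1.51 ± 0.24 in the authors' deposited table (adjusted p = 1.17e-08), or 2.85-fold. That region is weak (base mean 113) and lies 2333 bp from the Mrpl53 start, 746 bp from the next region, which is credited to Mogs. Mrpl1, the counterpart of a bacterial protein at the ribosome's exit site for tRNA, rose 1.67-fold, with 0.74 ± 0.08 in the authors' deposited table (adjusted p = 1.47e-18). Its region, chr5:96633097-96640433 (mm9), spans 7337 bp around the TSS. Mrpl20, which in bacteria is needed early in assembly of the large subunit, rose by 0.50 ± 0.15 (adjusted p = 0.00725, authors' deposited table). Mrpl12, which in human cells also binds the mitochondrial RNA polymerase, and Mrpl52, a protein found only in mitochondrial ribosomes, each stood at 0.43 in the authors' deposited table, with adjusted p = 2.03e-06 and 0.00734. That Mrpl12 region lies 2403 bp from its start, and the one over the start had 0.39 ± 0.12 (adjusted p = 0.00473, authors' deposited table).

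Among the falls of the large subunit, Mrpl46 was lowest at -0.88 ± 0.13 in the authors' deposited table (adjusted p = 1.44e-10), that is, 0.543 of the DMSO level. Its region, chr7:85927498-85928831 (mm9), covers the Mrpl46 start, which lies beside that of Mrps11, so the fall cannot be assigned to 1 of these genes. Mrpl32, whose processing by a mitochondrial protease is needed for ribosome assembly in yeast, had -0.76 ± 0.27 in the authors' deposited table (adjusted p = 0.0244), at a base mean of 79.6. Mrpl13, with a bacterial counterpart, had -0.68 ± 0.10 (adjusted p = 1.24e-09, authors' deposited table). Mrpl48 shows how the choice of region matters. Its strongest region lies 6261 bp from the start and had -0.36 ± 0.10, whereas the region over the start had -1.25 ± 0.17 (adjusted p = 1.88e-12), the lowest value of any TSS-covering member region in the authors' deposited table.

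No gene of the small subunit was higher, and 5 of 26 were lower (19.2%), beside 12% and 33.5% of all genes. The median was -0.272. Mrps25, a protein specific to mitochondrial ribosomes, had -0.84 ± 0.21 in the authors' deposited table (adjusted p = 6.80e-04). Mrps5, the counterpart of a bacterial protein that helps set decoding accuracy, had -0.75 ± 0.13 (adjusted p = 4.48e-07) over its start, while a weaker region 2522 bp away went the other way, at 0.56 ± 0.22 (adjusted p = 0.0438), both in the authors' deposited table. Mrps18b, 1 of 3 mammalian relatives of a single bacterial protein, fell by 0.56 ± 0.07 (adjusted p = 2.69e-15, authors' deposited table) at chr17:36051433-36056063 (mm9). Ppp1r10 starts 756 bp away on the opposite strand with no TSS-covering region of its own. Which of these genes the Mrps18b region serves was not tested. The other 2 lower genes were Mrps27 (-0.51 ± 0.13, adjusted p = 8.78e-04), at a region 8619 bp from its start, and Mrps21 (-0.30 ± 0.11, adjusted p = 0.0317), both from the authors' deposited table.

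In the core of complex I the median was -0.333. There 3 of 7 genes were lower (42.9%) and none higher, beside 33.5% and 12% of all genes. These falls were small. Ndufs3, a subunit of the arm that reaches into the matrix, had -0.35 ± 0.14 (adjusted p = 0.0496), and Ndufs1, the large iron-sulphur protein of the electron input module, had -0.33 ± 0.10 (adjusted p = 0.00464), both from the authors' deposited table. The 4 that were not called lay between -0.34 and 0.03. All 3 core calls depended on where 0 was set, as described below.

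The accessory subunits, which surround the core and stabilise it, had a median of -0.185. Of these 27 genes 7 were lower (25.9%) and 2 higher (7.41%), beside 33.5% and 12% of all genes. Ndufa6, a LYR-motif protein that anchors the acyl carrier protein Ndufab1, had -0.91 ± 0.13 in the authors' deposited table (adjusted p = 6.84e-11), at a region 6704 bp from its start. Ndufc2 and Ndufb11, both of the membrane arm, had -0.76 ± 0.14 (adjusted p = 4.28e-07) and -0.66 ± 0.10 (adjusted p = 2.60e-09) at their starts in the authors' deposited table. Ndufv3, a small subunit beside the flavoprotein, was higher at its start by 0.62 ± 0.13 (adjusted p = 2.83e-05, authors' deposited table). Ndufb9, another LYR-motif protein, was higher by 0.42 ± 0.07 (adjusted p = 8.21e-09, authors' deposited table), but at a region 68969 bp from its start.

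Of the 6 assembly factors 3 were lower (50%) and 1 higher (16.7%), beside 33.5% and 12% of all genes. Ndufaf7, a methyltransferase, had the lowest value of any member, -1.60 ± 0.62 in the authors' deposited table (adjusted p = 0.0407), but at a region with a base mean of only 19.2 and 11635 bp from its start. Ndufaf1, a part of the membrane-bound MCIA assembly complex, had -0.55 ± 0.15 (adjusted p = 0.00176), and Ndufaf3, which works with Ndufaf4 in early assembly, had -0.34 ± 0.08 (adjusted p = 3.22e-04), both over their starts in the authors' deposited table. Ndufaf6, also needed early, was higher by 0.61 ± 0.14 (adjusted p = 1.10e-04, authors' deposited table). Ndufa4 was lower, at -0.41 ± 0.11 (adjusted p = 0.00191, authors' deposited table).

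How many members rose depended on where 0 is set. Over the regions whose base mean was no lower than the median one, the median log2 fold change was -0.0991 with apicidin and of -0.000979 with GSI in the authors' deposited table. With the apicidin values centred on that median, 15 member genes were higher and 18 lower, beside 16.1% and 25.1% of all genes. With the running median over base mean subtracted instead, 17 were higher and 15 lower, beside 16.9% and 22.9% of all genes. The share of calls that were higher thus went with the scaling, at 22.2% as deposited, 45.5% centred and 53.1% with the trend subtracted. The median over all genes shifted from the deposited -0.178 to -0.079 and -0.07, and that of the members to -0.068 and -0.087. By role, the large subunit turned from 5 higher and 9 lower to 11 and 6, then 11 and 4, and its median of -0.065 turned to 0.034 and -0.002. The small subunit kept 4 lower genes under both scalings, with 0 and 1 higher, and the core of complex I kept no call at all.

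**Figure D2:**
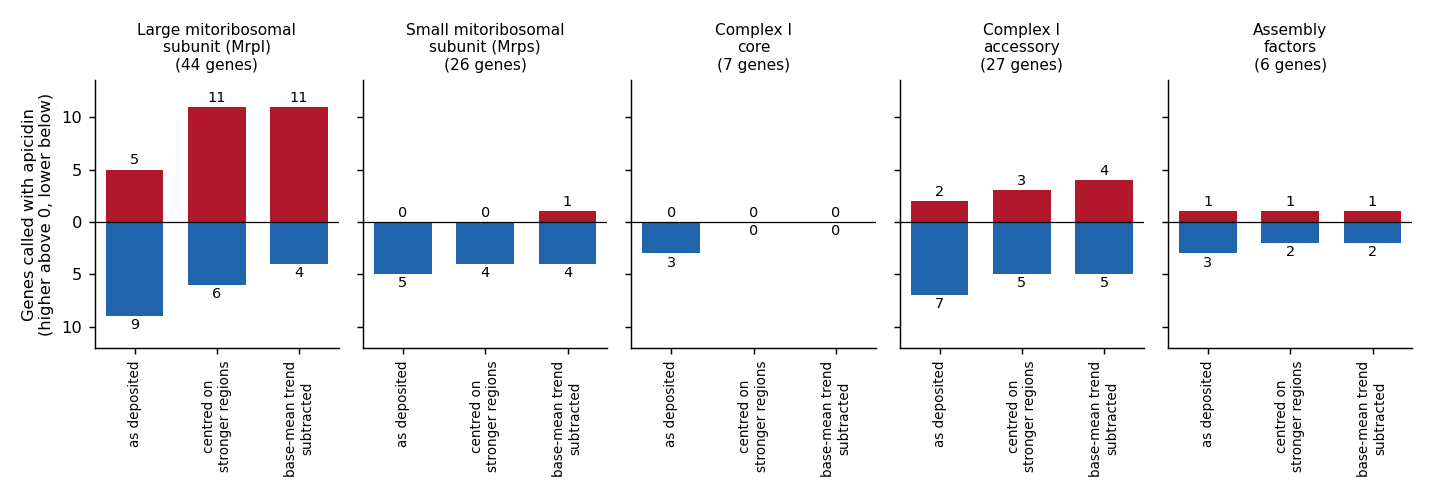
Number of genes called higher (above 0) and lower (below 0) with apicidin against DMSO, by role, for the fold changes as deposited, centred on the median of regions with a base mean no lower than the median one, and with the running median over base mean subtracted. The large subunit has 5 higher and 9 lower genes as deposited and 11 higher under both other scalings, while the 3 lower core genes of complex I are no longer called.

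Calls followed the strength of a promoter. The 80 TSS-covering member regions were split at equal numbers by base mean. Among the weakest (base mean 67.3 to 196) 3 of 27 were lower with apicidin (11.1%), in the middle group 6 of 26 (23.1%) and among the strongest (381 to 2305) 15 of 27 (55.6%). All TSS-covering regions in the same ranges of base mean were lower in 23%, 32% and 48.3% of cases. The member medians were -0.196, -0.086 and -0.324, beside -0.229, -0.235 and -0.253 for all TSS-covering regions, and the median SE of the members was 0.212, 0.150 and 0.116, so the same change was harder to call at a weak promoter. Rises numbered 0, 2 and 4 genes (0%, 7.69% and 14.8%), beside 4.39%, 5.57% and 8.74% of all TSS-covering regions.

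**Figure D3:**
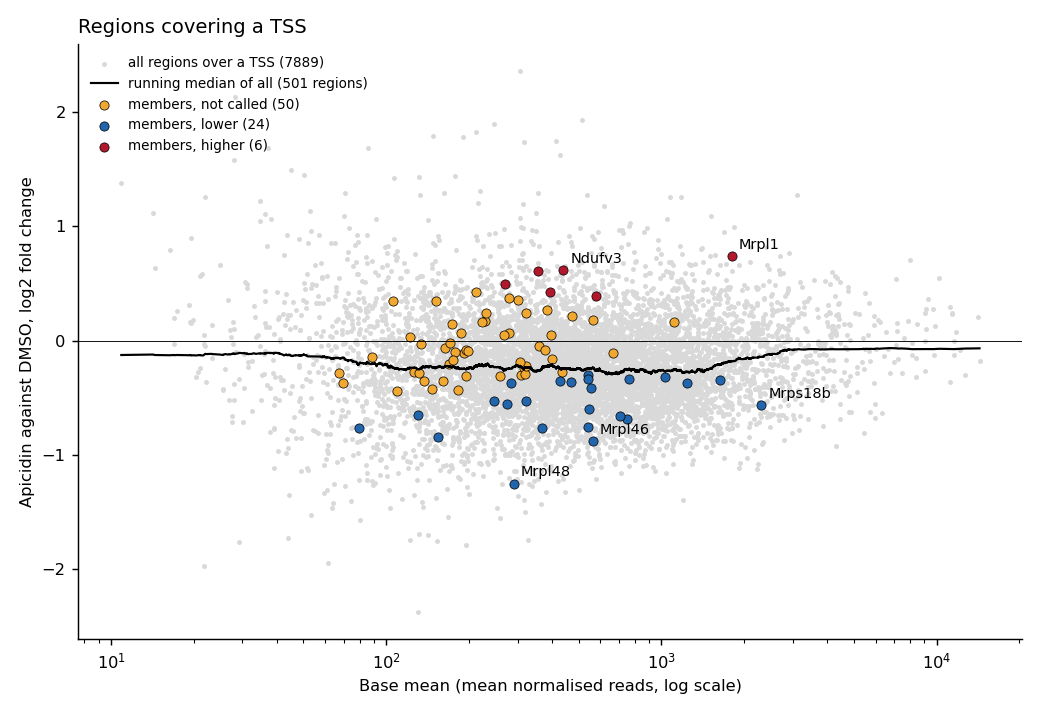
Log2 fold change with apicidin against DMSO (y axis) against base mean (x axis, log scale) for TSS-covering regions, from the authors' deposited table. Coloured points are the 80 member regions (24 lower, 6 higher, 50 not called), grey points all 7889 such regions and the line their running median. Called members lie mostly at higher base means, with Mrpl1 highest and Mrpl48 lowest.

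GSI was compared with DMSO to ask how acetylation depends on Notch cleavage. Few member genes were called. Of the 97 whose strongest region had an adjusted p, 4 were higher (4.12%) and 1 lower (1.03%), beside 7.74% and 6.8% of all genes, and the other 14 were too weak to carry an adjusted p. At an unadjusted p under 0.05, 7 of the 111 were higher and 7 lower, beside 1499 and 1291 of all 12081 genes. The median log2 fold change was -0.044 over the 111 members and 0.007 over all genes. Over TSS-covering regions 4 of 78 tested members were higher (5.13%) and 1 lower (1.28%), beside 5.25% and 4.36% of all such regions. Within the members' interquartile range of base mean, 2.47% of all such regions were higher and 3.45% lower, shares not matched to the 78 in strength. In the weakest, middle and strongest groups by base mean, 0%, 3.85% and 11.1% of tested members were higher, beside 2%, 2.17% and 6.02% of all TSS-covering regions. In the same groups 4%, 0% and 0% of members were lower, beside 2.52%, 3.57% and 4.41%.

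**Figure D4:**
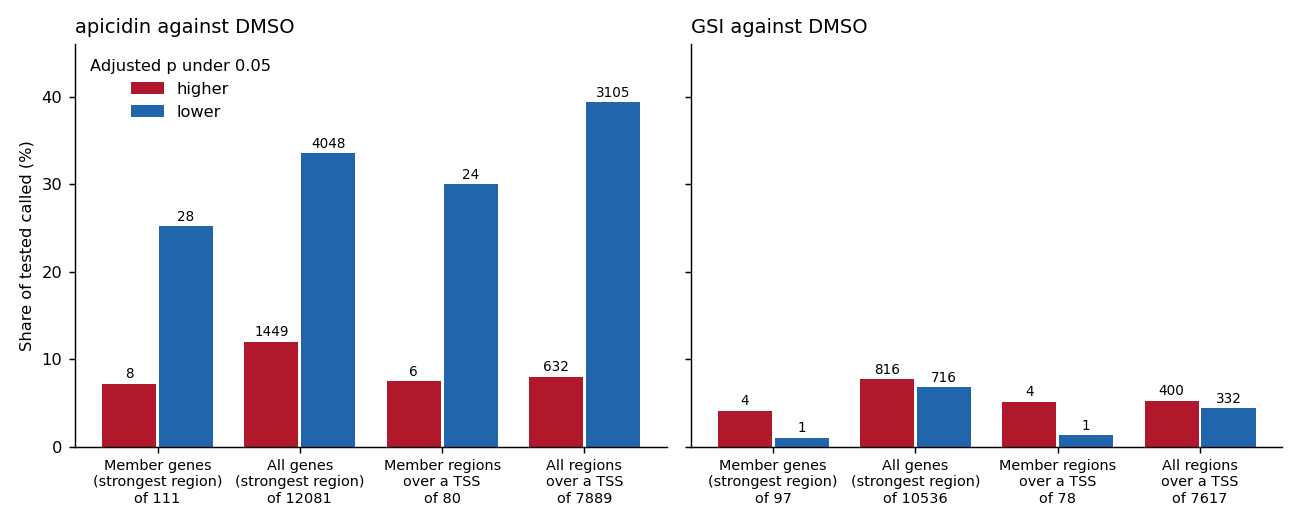
Share of tested genes or regions called higher (red) and lower (blue), in percent, with apicidin (left) and GSI (right) against DMSO, for members and for all genes, by strongest region and by regions covering a TSS. The number above a bar is the count called. Members lie at 25.2% lower with apicidin, beside 33.5% of all genes, and at 1.03% lower with GSI, beside 6.8%.

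Mrpl1 was higher with GSI as well, by 0.55 ± 0.08 (adjusted p = 1.36e-09, authors' deposited table), or 1.46-fold. Mrps18b was higher by 0.43 ± 0.07 (adjusted p = 2.36e-09) and Ndufb2, an accessory subunit of the membrane arm, by 0.34 ± 0.11 (adjusted p = 0.0239), both at their starts in the authors' deposited table. Both of these had been lower with apicidin. Mrpl53, at 0.70 ± 0.26 (adjusted p = 0.0491, authors' deposited table), was a borderline call that was lost without the authors' filter on weak regions (adjusted p = 0.0946).

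The single gene lower with GSI was Mrpl37, a protein specific to mitochondrial ribosomes. Its strongest region, chr4:106672302-106680378 (mm9), had -0.62 ± 0.09 with GSI (adjusted p = 9.49e-11) and -0.34 ± 0.08 with apicidin (adjusted p = 4.42e-04) in the authors' deposited table. It lies 59092 bp from the Mrpl37 start, in a run of regions whose far end is 879 bp from the next region, credited to Ssbp3. The region over the Mrpl37 start was also lower, at -0.70 ± 0.24 with GSI (adjusted p = 0.0268) and -0.65 ± 0.23 with apicidin (adjusted p = 0.0211, authors' deposited table).

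Regions other than the strongest gave further calls with GSI. Over all 151 tested member regions 8 were higher and 6 lower, beside 6.62% and 7.17% of all tested regions. Ndufv1, the flavoprotein that takes electrons from NADH, had 0.52 ± 0.17 over its start (adjusted p = 0.0232, authors' deposited table), a region weaker than one 10029 bp away that stood for the gene and was not called. Mrpl33 had a region 10434 bp from its start that was lower with apicidin, by the authors' deposited table, with -0.34 ± 0.12 (adjusted p = 0.0179), and higher with GSI, with 0.43 ± 0.12 (adjusted p = 0.00317). Mrps31 had a region 23321 bp away that was lower with both, at -1.07 ± 0.25 with apicidin (adjusted p = 2.15e-04) and -0.71 ± 0.26 with GSI (adjusted p = 0.0426, authors' deposited table).

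Both treatments were then set against each other, as the difference of the apicidin and the GSI log2 fold changes of the authors' deposited table. Its SE is an upper bound, since both share the DMSO libraries. Of 111 genes 2 were higher with apicidin than with GSI (1.8%) and 12 lower (10.8%), beside 5.26% and 18.1% of all genes. These counts went with the scaling, at 4 higher and 8 lower with centred values and 5 and 5 with the trend subtracted. The shares over all genes moved as well, to 7.37% higher and 12.6% lower centred, and to 8.59% and 10.3% with the trend subtracted. Mrps18b differed most clearly, by -0.99 ± 0.09 (adjusted p = 6.92e-23 from the authors' deposited table). Mrpl46 differed by -1.04 ± 0.18 (adjusted p = 6.00e-07) and Ndufb2 by -0.94 ± 0.16 (adjusted p = 6.17e-07), both computed from the authors' deposited table. Mrps5 (-0.84 ± 0.19, adjusted p = 3.42e-04) and Ndufa6 (-0.84 ± 0.18, adjusted p = 1.67e-04) followed, computed in the same way from the authors' deposited table. The other 7 lower genes were Ndufc2, Mrpl13, Ndufa4, Ndufa2, Ndufb11, Mrpl48 and Mrpl54, none of which was called with the trend subtracted (Mrpl13, Ndufa4 and Ndufb11 were with centred values). On the higher side were Mrpl12, by 0.47 ± 0.12 (adjusted p = 0.00167), and Ndufb9, by 0.35 ± 0.10 (adjusted p = 0.00612), computed from the authors' deposited table. These regions lie 2403 bp and 68969 bp from the starts of their genes. Mrpl1 rose with both treatments, and its difference of 0.20 ± 0.11 was not called (adjusted p = 0.403, from the authors' deposited table).

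The 6 genes with at least 10 regions each are described region by region. Mrpl1 was the most uniform: all 13 of its regions had a positive apicidin value in the authors' deposited table, 6 of them called, and with GSI 10 were positive and 2 of the 4 tested were higher. A region 7174 bp from the Mrpl1 start reached 1.52 ± 0.16 with apicidin (adjusted p = 2.41e-20) and 0.81 ± 0.16 with GSI (adjusted p = 2.39e-05, authors' deposited table). Mrpl37 was the reverse, with 11 of 12 regions negative under each treatment, 2 of 12 called lower with apicidin and 4 of 5 tested called lower with GSI. Of all regions 9.69% were higher and 14.1% lower with apicidin, and 6.62% and 7.17% of those tested with GSI. The median log2 fold change over all regions was 0.004 with apicidin and 0.002 with GSI. Regions of 1 locus share their surroundings and are not replicates of each other.

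Mrpl35 had 11 of 13 positive values with apicidin and 12 of 13 negative values with GSI in the authors' deposited table, but few calls, 1 higher with apicidin and 0 of 6 tested with GSI (unadjusted p under 0.05, 0 higher and 1 lower). Ndufa12 had 11 of 14 positive values with apicidin and 1 higher call, 0.73 ± 0.21 at 35752 bp from its start (adjusted p = 0.00437, authors' deposited table). Ndufb9 had 19 regions, none over its own start, that did not move together. Of these, 15 had negative apicidin values and 1 was lower, at -1.36 ± 0.48 (adjusted p = 0.0242, authors' deposited table), while the strongest, at the far end and 153 bp from a region credited to Mtss1, was the higher one named above. Ndufv3 had 8 of 10 positive values with apicidin, the called one being over its start, and a region 2451 bp away was lower with GSI, at -0.84 ± 0.25 (adjusted p = 0.00885, authors' deposited table). These calls are to be read beside the shares of all regions, 9.69% higher and 14.1% lower with apicidin, and 6.62% and 7.17% with GSI. Symbols were assigned by the authors, and which gene such a distant region serves was not tested.

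**Figure D5:**
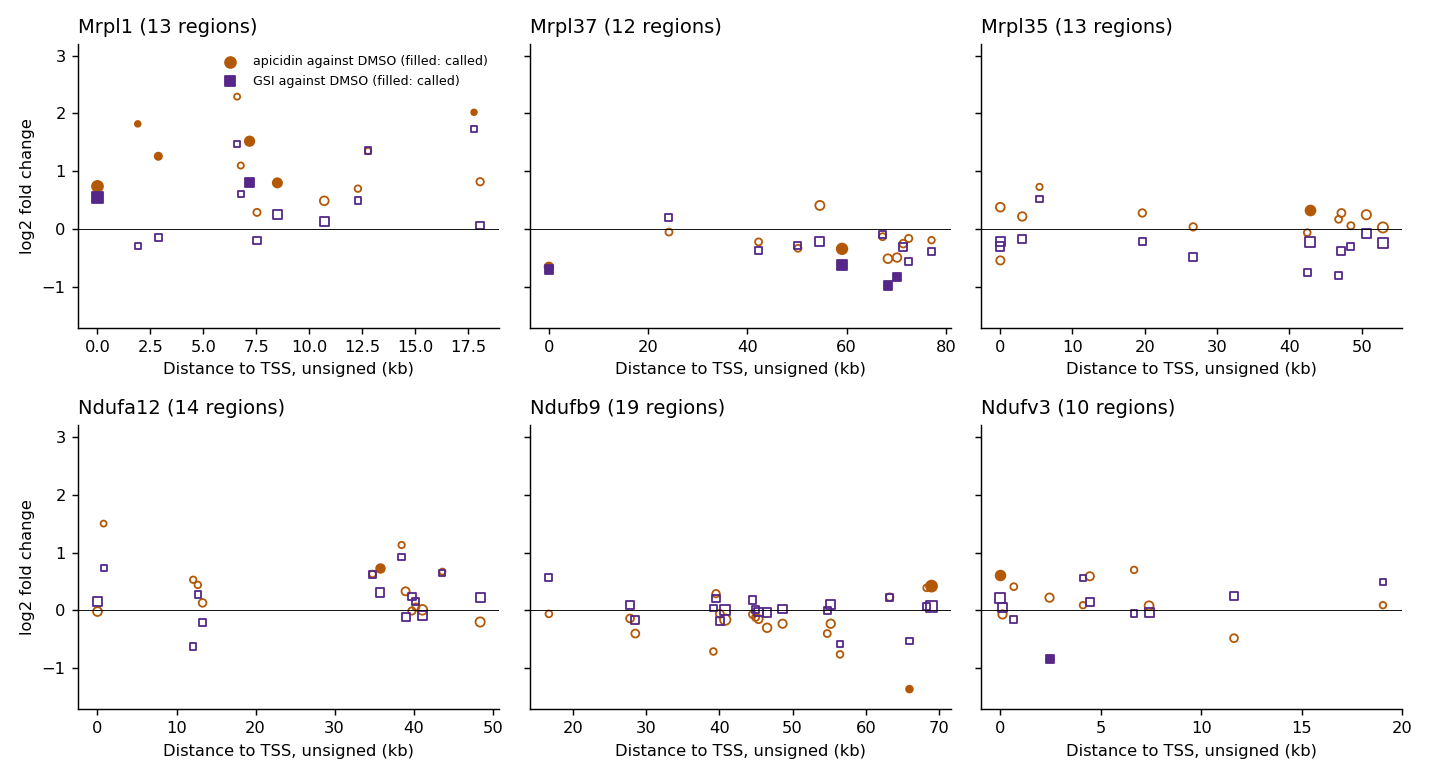
Log2 fold change against DMSO (y axis) by unsigned distance from the gene's start (x axis, kb) for the 6 genes with at least 10 regions, from the authors' deposited table. Circles are apicidin, squares GSI, filled symbols called regions, and larger symbols have a higher base mean. All 13 Mrpl1 regions are above 0 with apicidin, and 11 of 12 Mrpl37 regions are below 0 with each treatment.

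RBPJ overlap was sparse. The authors' deposited table marks 9 of the 289 member regions as overlapping an RBPJ site (3.11%), against 2.73% of all regions, and 4 of the 80 TSS-covering ones (5%), against 12% of all TSS-covering regions. The 9 belong to Mrpl2, Mrpl17, Mrpl38, Mrpl40, Mrpl45 and Ndufv3, with 2 regions each for Mrpl38, Mrpl45 and Ndufv3. With GSI, DESeq2 called 0 of the 9 as higher or lower in the authors' deposited table (unadjusted p under 0.05, 0 higher and 1 lower), beside 4.66% higher and 10.5% lower of all tested RBPJ-overlapping regions. Their GSI values lay between -0.35 and 0.30 in the authors' deposited table. With apicidin 1 was higher, the Ndufv3 promoter named above, and 2 were lower, beside 9.1% higher and 36.9% lower of all such regions. In the authors' deposited table the lower ones were the start of Mrpl40, at -0.32 ± 0.10 (adjusted p = 0.00476), and a region 160 bp from that of Mrpl38, at -0.54 ± 0.20 (adjusted p = 0.0341). None of the 5 RBPJ-overlapping genes with a RefSeq promoter held the RBPJ core in its window.

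Other lists of mitochondrial genes are given as counts with no test, to be read against the 33.5% of all genes that were lower and the 12% that were higher with apicidin. Of 35 nuclear genes for respiratory complexes II to V with a region, 15 were lower (42.9%) and 0 higher at the strongest region (unadjusted p under 0.05, 19 lower and 0 higher), with a median of -0.271, and GSI gave 1 higher and 1 lower of 34 tested. The falls were 2 of 4 genes in complex II, 4 of 9 in complex III, 3 of 10 in complex IV and 6 of 12 in complex V. Uqcrb, a small subunit of complex III, had -0.84 and Cox7c, a small subunit of complex IV, had -0.75 in the authors' deposited table, with adjusted p = 4.58e-04 and 7.94e-06. Assembly factors of complex I without the Nduf name had 3 of 8 lower (37.5%), factors of mitochondrial translation 3 of 11 (27.3%), factors of mitoribosome assembly 3 of 7 (42.9%) and mitochondrial protein import 6 of 15 (40%) with 1 higher. These lists are short, and none was shown to differ from genes at large. Mitochondrial aminoacyl-tRNA synthetases, which charge the tRNAs that the mitoribosome uses, were split, with 2 higher and 2 lower of 14.

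Among 13 regulators of mitochondrial transcription and biogenesis, 4 were lower (30.8%) and 0 higher with apicidin (unadjusted p under 0.05, 4 lower and 2 higher), a share of falls near the 33.5% of all genes. These were Nrf1, at -0.72 ± 0.07 (adjusted p = 3.04e-22), and the 2 GABP genes Gabpb1, at -0.66 ± 0.07 (adjusted p = 1.41e-20), and Gabpa, at -0.55 ± 0.08 (adjusted p = 6.88e-10), all from the authors' deposited table, and Myc, at -0.26 ± 0.06 (adjusted p = 2.55e-04, authors' deposited table). With GSI 3 were lower and 1 higher, beside 6.8% and 7.74% of all genes. Tfam, which packages and transcribes mitochondrial DNA, had -0.48 ± 0.14 (adjusted p = 0.00714), Myc -0.40 ± 0.06 (adjusted p = 1.19e-08) and the nuclear receptor Esrra -0.38 ± 0.13 (adjusted p = 0.0301), and Polg, the mitochondrial DNA polymerase, was higher by 0.46 ± 0.16 (adjusted p = 0.0369), all in the authors' deposited table.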

How the data were processed

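H3K27ac ChIP-seq libraries (2 per group, plus inputs and RBPJ, 11 in all) were processed by the authors. FastQC, Bowtie2, SAMtools and deepTools are the tools, and mm9 the build, per the submitters' processing notes. Not given in the sources used here are the region caller, the read counter, the use of inputs and the DESeq2 version. Per the file headers, the deposited table holds DESeq2 output for each treatment. Its base mean is a signal the authors computed, a mean of normalised counts, read here from the columns of the apicidin comparison. The log2 fold changes, their SEs and the Wald score were deposited by the authors, as were the p-values, adjusted by the Benjamini-Hochberg method. The headers name no reference, and DMSO was used as such because the labels give no other control. GSI carries an adjusted p for 25756 regions and none for 30586, split at a base mean of 72.1, and regions without one were kept as untested. Depth per library is unknown, so precision is read from the SEs, and no value per library was available for a fit, a replicate block or leaving out a library.

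Counts, medians and shares were computed with Python 3.11.15, pandas 2.3.3, numpy 2.4.6 and scipy 1.17.1. The difference between treatments was divided by the root of the summed squared SEs, and its two-sided normal p was adjusted over all 56342 regions by the Benjamini-Hochberg method. This and the rescaling were tested on simulated data. The running median spanned 2001 regions. Members, gene lists and tests were chosen with earlier results of these data known. Named genes were, per role and comparison, up to 3 called genes at either end, the highest and lowest base mean, called members with RBPJ overlap, the 5 smallest p-values of the difference and members with regions called both ways. Mrpl12, Mrpl52, Mrpl48, Mrps21, Mrps27, Ndufv1, Mrpl33, Mrps31, Mrpl35 and Ndufa12, and the genes named outside the members, were named after their values were seen. The promoters were to be those of the largest called fall and rise with apicidin and of an RBPJ-overlapping member called with GSI. The largest fall and rise lay off their promoters and no such RBPJ member was called, so the 4 printed were chosen afterwards. The 12 members without a RefSeq promoter were not used there. One further called member is not reported here by name.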

Additional observations from a re-analysis of the deposited data

How the results depend on the processing

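The apicidin counts depended on scaling and on a minimum change: genes higher numbered 15 with centred values, 17 with the trend over base mean subtracted and 5 where a log2 change of at least 0.5 was also asked, and genes lower 18, 15 and 16, against 8 and 28 as deposited. Over all genes the shares higher were 16.1%, 16.9% and 7.21% in these settings, against 12% as deposited. The shares lower over all genes were 25.1%, 22.9% and 19.1%, against 33.5%. With GSI, 2 genes were higher at an adjusted p under 0.01 and 2 with a change of at least 0.5, against 4, and 2 were lower at an adjusted p under 0.1, against 1. Of all genes 5.05% and 2.64% were higher in the first 2 of these settings, against 7.74%. In the last one 8.51% of all genes were lower, against 6.8%. Genes higher with apicidin than with GSI numbered 4 centred, 5 with the trend subtracted, 1 where the TSS-covering region stood for the gene and 0 with a change of at least 0.5, against 2, and genes lower numbered 5 with the trend subtracted, against 12. Of all genes 7.37% were higher centred, 8.59% with the trend subtracted and 3.46% with that change, against 5.26%. Of all TSS-covering regions 3.87% were higher. With the trend subtracted 10.3% of all genes were lower, against 18.1%. For these changed counts the cause was not tested, beyond the shift of 0 and the stricter thresholds that define the settings. Of 40 calls on the genes named by rule, centring kept 33 and trend subtraction 29, and neither turned one of these calls to the opposite direction. The 3 core complex I calls, Mrpl40 and Ndufc2 in the difference were among those lost under both. No independent filtering lost Mrpl53 with GSI (adjusted p = 0.0946). No paired analysis was possible because the table that was used holds no value per library, and leaving out each library in turn was not run for the same reason. With 2 libraries per group, weak regions carry the largest errors: the median SE was 0.383 for member regions off a TSS and 0.150 for those over one with apicidin, so small changes at weak regions were not detectable.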
